A study of Drosophila melanogaster with 7 samples.

Results

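The genes described here are 9 heat shock chaperones and regulators of Drosophila melanogaster, namely the transcription factor gene Hsf, the inducible Hsp70 genes Hsp70Ab, Hsp70Ba and Hsp70Bbb, the related Hsp68, the co-chaperone genes DnaJ-1 and stv, and the small heat shock genes Hsp26 and Hsp27. Their probes were found by symbol in the probe annotation and the current gene table. Each had 1 probe, so the 9 probes stand among 14569 probes on the array, 12657 of which had 1 gene symbol and named 11609 genes.

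Cells that are heated unfold part of their proteins, and the heat shock factor Hsf then binds the promoters of heat shock genes, where paused RNA polymerase is released within minutes. Hsp70 binds unfolded stretches of protein, J-domain proteins such as DnaJ-1 deliver substrates and speed up its ATP cycle, and BAG-domain proteins such as the product of stv release its nucleotide. Small heat shock proteins hold unfolded protein until Hsp70 takes it over. In flies, Hsp26 and Hsp27 are also known to respond to the steroid hormone ecdysone without heat.

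The 7 two-colour arrays compared RNA from salivary glands of crawling last-instar larvae, in which TEV protease had been induced by heat for 45 min at 37 °C, followed by 10 to 12 h at room temperature. All glands were w1118, carried 1 copy of the heat-inducible hs-TEV transgene and had the Rad21ex3 allele. In the sample with cleaved cohesin the other chromosome was Rad21ex15 with the transgene Rad21(TEV), a myc-tagged Rad21 that the protease cuts, which opens the cohesin ring. The intact sample had an uncut Rad21, either from the genomic locus (genomic Rad21 over Rad21ex3, arrays 1.1, 1.2 and 1.3) or from a transgene (tgRad21 on a Rad21ex3 chromosome over Rad21ex3, arrays 2.1 to 2.4). The promoter that drives the Rad21 transgenes is not named in the labels. The stocks differ as well as the Rad21 protein, so a stock difference and cleavage cannot be told apart. Both samples of every pair were heated, so the arrays compare heat shock transcripts some hours into recovery and hold no unheated sample against which induction could be read.

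Values are the deposited log ratios, read as log2, and signs are given as deposited. The numerator is not stated. A negative value likely means less transcript in glands with cleaved Rad21, on a basis outside the labels: fly neurons that lack cohesin are known to have less of the ecdysone receptor EcR, and EcR was negative on 7 of 7 arrays here. The ratios carry no expression level, so the labelled tissue could not be checked against its markers. In RNA from whole glands, fewer cells of a type and less RNA per cell cannot be told apart. Across arrays the median of all probes ran from −0.22 to 0.25, and the robust spread (scaled median absolute deviation) from 0.30 on array 1.2 to 0.85 on array 2.1. The 12 pairs of arrays with opposite dyes correlated across probes at a median Pearson of 0.270 (0.011 to 0.481) and Spearman of 0.168 (−0.11 to 0.344, positive for 10). For the 9 pairs with the same dyes the medians were 0.394 (−0.041 to 0.587) and 0.374 (−0.033 to 0.49).

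Of the 9 genes, 1 changed between cleaved and intact cohesin, the positive stv, against 7.95% of all probes called in either direction (limma over all probes, Benjamini-Hochberg adjusted p under 0.05) and 4.15% called positive. With 1 call, the share among the 9 genes cannot be told from this background. The other 8 did not pass, and none was called negative, where 3.8% of probes were. Of the 9 estimates 6 were negative, and the median of the 9 was −0.40, against 0.02 over all probes. The Hsp70 copies are all among the negative ones, and their probes may bind one another's transcripts. Neither these counts nor those that follow are thus counts of 9 independent measurements. Hsp68, Hsp70Ab, Hsp70Bbb and DnaJ-1 were negative on at least 6 of 7 arrays, which held for 13.4% of all probes. With each array centred on its median, Hsp70Bbb was negative on 5. These 4 also had an unadjusted p under 0.05 with a negative sign, as did 9.47% of probes, and with stv 5 of the 9 had one in either direction, as did 20.0% of probes.

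**Figure D1:**
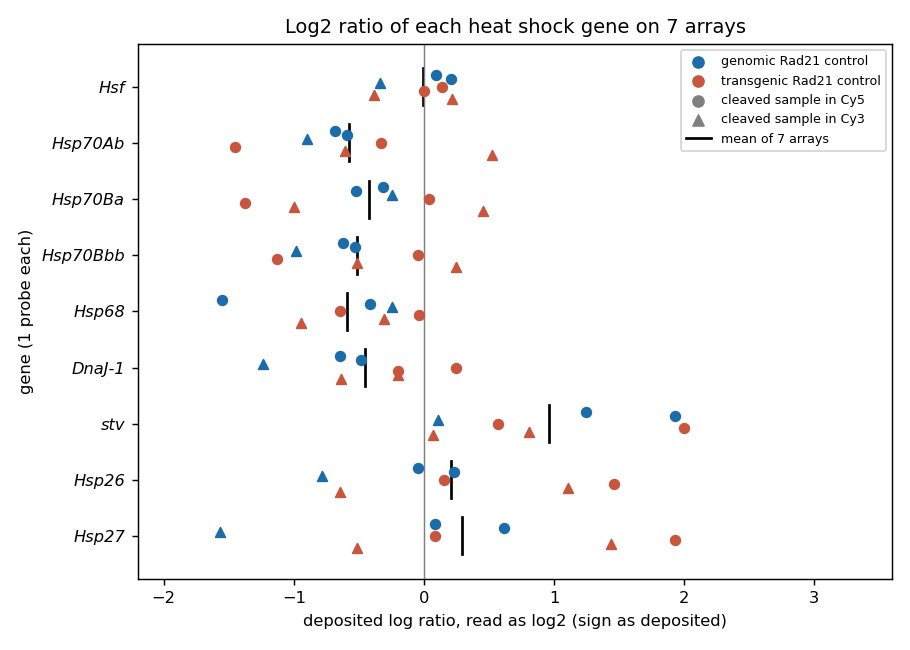
Deposited log ratio of each gene (horizontal axis, read as log2) on the 7 arrays, with 1 row a gene. Colour gives the kind of intact control, the symbol gives the dye of the cleaved sample, and the black bar is the mean of the 7 arrays. The stv points all lie above 0, from 0.07 to 2.0, and the Hsp68 points all lie below it, while Hsp26 and Hsp27 spread to both sides.

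The regulator Hsf, the transcription factor that switches on the heat shock genes, had the narrowest spread of the 9. With genomic controls (arrays 1.1, 1.2 and 1.3, in this order throughout) its log2 ratio read 0.09, 0.20 and −0.34, and with transgenic controls (arrays 2.1 to 2.4) it read 0.14, 0.00, −0.38 and 0.22. Positive and negative arrays occurred under both kinds of control. The estimate was −0.03 ± 0.14 (SE, n = 7, adjusted p = 0.960 with limma), with a 95% interval from −0.34 to 0.28.

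The inducible Hsp70 genes encode nearly identical proteins from clustered copies on chromosome 3R, so a probe named for one copy may also bind transcripts of the others, and the 3 probes are not independent measurements. For Hsp70Ab the log2 ratio was −0.68, −0.59 and −0.90 with genomic controls, followed by −0.33, −1.45, −0.61 and 0.52 with transgenic controls. For Hsp70Bbb it was −0.62, −0.53 and −0.99, and −0.04, −1.13, −0.52 and 0.25, in the same order. For Hsp70Ba it was −0.32, −0.52 and −0.24, and 0.04, −1.38, −1.0 and 0.45. All 3 copies were thus lowest on array 2.2 and highest on array 2.4, both with a transgenic control, and the genomic control arrays lay between these. Ranked among all probes of the same array, Hsp70Ab stood at the 4.52 percentile on array 2.2 and at the 84.5 percentile on array 2.4. The estimates were −0.54 ± 0.22 for Hsp70Ab, −0.50 ± 0.20 for Hsp70Bbb and −0.40 ± 0.23 for Hsp70Ba (SE, n = 7, adjusted p = 0.201, 0.195 and 0.414 with limma). Their 95% intervals ran from −1.04 to −0.05, from −0.95 to −0.05 and from −0.93 to 0.12, so a log2 difference of close to −1 and one near 0 both lie within reach of these arrays.

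Hsp68, an inducible relative of Hsp70 from a separate locus on 3R, was the one gene of the 9 that was negative on 7 of 7 arrays, as were 5.41% of probes. It read −1.55, −0.41 and −0.25 with genomic controls and −0.65, −0.04, −0.31 and −0.95 with transgenic controls. Array 1.1 was the lowest, and array 2.2, where the Hsp70 copies were lowest, was the one closest to 0. The estimate was −0.58 ± 0.20 (SE, n = 7, adjusted p = 0.143 with limma), the most negative of the 9, with a 95% interval from −1.05 to −0.11.

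The co-chaperones of Hsp70 lay on opposite sides of 0. DnaJ-1, a J-domain partner of Hsp70, read −0.65, −0.48 and −1.24 with genomic controls and 0.25, −0.20, −0.20 and −0.64 with transgenic controls. All arrays but 2.1 were negative, and the lowest was array 1.3. Its estimate was −0.48 ± 0.18 (SE, n = 7, adjusted p = 0.165 with limma), with a 95% interval from −0.90 to −0.07. It passed in 1 of 15 alternatives, with arrays weighted by their reproducibility (−0.59, adjusted p = 0.0383), where the weights had not converged, while the adjusted p ran up to 0.854 in the others (limma).

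The stv gene, which encodes the fly BAG-domain protein that works with Hsp70 in clearing damaged protein in muscle, read 1.25, 1.93 and 0.11 with genomic controls and 0.57, 2.0, 0.81 and 0.07 with transgenic controls. It was positive on 7 of 7 arrays, as were 6.26% of all probes, and both kinds of control included values near 0 and values close to 2. The estimate was 0.88 ± 0.21 (SE, n = 7, adjusted p = 0.0428 with limma), with a 95% interval from 0.40 to 1.37. The arrays with the cleaved sample in Cy5 (1.1, 1.2, 2.1 and 2.2) held values from 0.57 to 2.0, and those with it in Cy3 (1.3, 2.3 and 2.4) values from 0.07 to 0.81. The dye term of stv was 1.11 ± 0.42 (unadjusted p = 0.0306, adjusted p = 0.499 with limma). The estimate of 0.88 comes from the fit that holds this term, and it was 0.96 without it. A part of the dye beyond this term was not tested. The call was lost without that term (adjusted p = 0.0652 with limma), with arrays centred and scaled (0.115) and with a control-type term (0.0719). It was also lost without any single array except 2.1 (0.0821 to 0.125, limma). Over 15 alternatives the estimate stayed between 0.76 and 1.09, the highest on genomic control arrays alone, fitted with no dye term.

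The small heat shock genes Hsp26 and Hsp27, which lie close together on chromosome 3L with 3 other genes between them in the gene table, had estimates near 0 and the widest spread of the 9. Hsp27 read 0.09, 0.61 and −1.57 with genomic controls and 0.08, 1.93, 1.44 and −0.52 with transgenic controls. Hsp26 read −0.05, 0.23 and −0.78, and 0.16, 1.46, 1.11 and −0.64. Both were high on arrays 2.2 and 2.3 and low on arrays 1.3 and 2.4. Within their own arrays Hsp27 stood at the 98.4 percentile on array 2.2 and at the 2.47 percentile on array 1.3. The estimates were 0.23 ± 0.37 for Hsp27 and 0.17 ± 0.28 for Hsp26 (SE, n = 7, adjusted p = 0.851 and 0.854 with limma), with 95% intervals from −0.63 to 1.09 and from −0.48 to 0.82. Both signs turned without array 2.3, to −0.18 and −0.13.

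The kind of intact control was compared next, to see whether the ratios depended on genomic or transgenic Rad21. None of the 9 genes differed between the control types (0 of 14569 probes differed at an adjusted p under 0.05 with limma, or 0.0%, and 621 had an unadjusted p under 0.05, or 4.26%, with 0 of the 9 among them). The values of the 3 genomic and the 4 transgenic control arrays overlapped for all 9 genes, while they did not for 3.97% of probes. The difference, transgenic minus genomic, was largest for Hsp27, with an estimate of 1.2 and a 95% interval from −0.37 to 2.78. For Hsp26 it was 0.84 (−0.40 to 2.07) and for DnaJ-1 0.68 (−0.02 to 1.38, unadjusted p = 0.0552 and adjusted p = 1.0 with limma). For stv the difference was −0.05 (−1.13 to 1.03), and for the Hsp70 copies it lay between −0.16 and 0.33. These intervals are wide, so a difference of size 1 on the log2 scale lay within them for each of the 9 genes but Hsf, whose interval ran from −0.65 to 0.76.

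**Figure D2:**
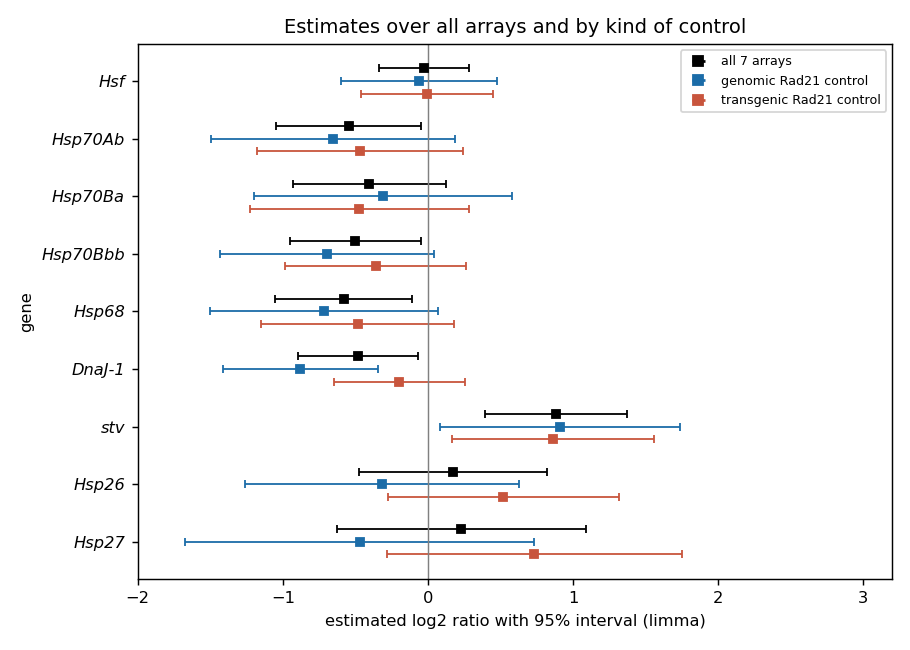
Estimated log2 ratio of each gene (squares) with its 95% interval from limma, over all 7 arrays (black), for the genomic control (blue, 3 arrays) and for the transgenic control (red, 4 arrays). The intervals of the control types overlap for every gene, and Hsp26 and Hsp27 have estimates of opposite sign in them.

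Fitted by control type in one model, DnaJ-1 had an estimate of −0.88 ± 0.23 with genomic controls and −0.20 ± 0.19 with transgenic controls (SE, adjusted p = 0.184 and 0.718 with limma). For Hsp27 the estimates were −0.47 ± 0.51 and 0.73 ± 0.43, and for Hsp26 −0.32 ± 0.40 and 0.52 ± 0.34. The 3 Hsp70 copies were negative under both, from −0.69 to −0.31 and from −0.47 to −0.36, and stv was positive under both, at 0.91 ± 0.35 and 0.86 ± 0.30. None of the 9 passed within either control type, where 0.666% and 3.81% of probes did.

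Correlations between the 9 genes are a description over 7 arrays whose points share each array's pair of samples and its spread. Hsp26 and Hsp27 had a Pearson correlation of 0.968 (Spearman 0.964), and 0.918 without arrays 2.2 and 2.3, the farthest from the median of Hsp26. Of the 12656 other named probes, 21 correlated more strongly with Hsp26 than Hsp27 did. Hsp70Ab and Hsp70Bbb correlated at 0.949 (Spearman 0.964), and at 0.997 without arrays 2.2 and 2.4, with 6 probes more strongly correlated with Hsp70Ab. Hsp70Ba correlated with Hsp70Ab at 0.841 (Spearman 0.679), but at 0.211 without those arrays, so this relation rests on them. Hsp70Ba and Hsp26 ran against each other at −0.875 (Spearman −0.821), and at −0.712 without arrays 2.2 and 2.4. Hsf correlated with the other 8 genes between −0.465 for Hsp68 and 0.517 for Hsp70Bbb, and Hsp68 with the Hsp70 copies between −0.573 and −0.469.

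**Figure D3:**
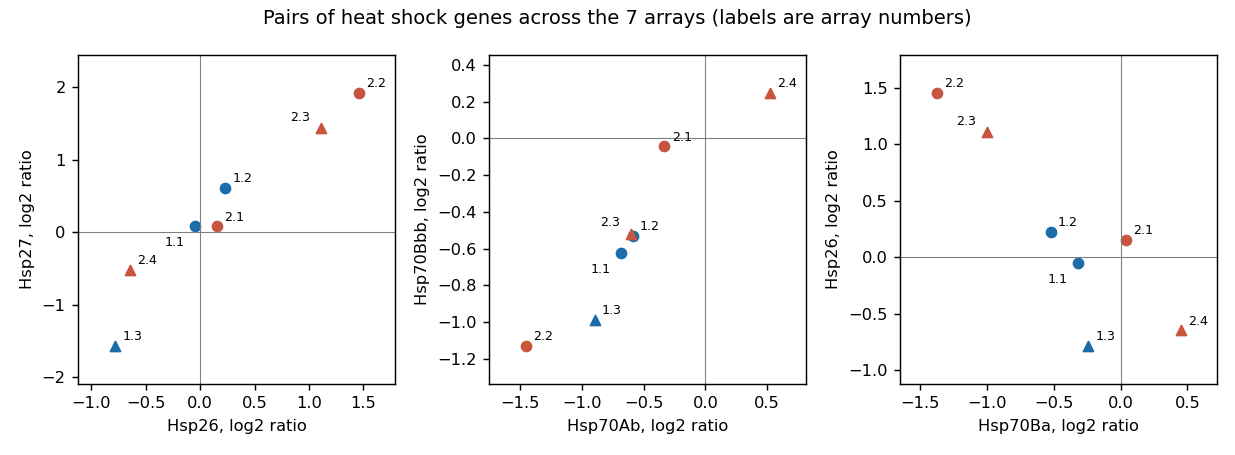
Log2 ratios of 3 pairs of heat shock genes, with 1 point an array (label: array number; blue: genomic control; red: transgenic control; circle: cleaved sample in Cy5; triangle: in Cy3). Hsp26 and Hsp27 rise together from array 1.3 to array 2.2, Hsp70Ab and Hsp70Bbb together from 2.2 to 2.4, and Hsp26 is highest where Hsp70Ba is lowest.

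The genes outside the 9 whose log2 ratios were most like those of Hsp70Ab over the 7 arrays were Grl65a, CG17105 and gammaSnap2 (Pearson 0.990, 0.986 and 0.954). For Hsf they were Veneno, Pgant3 and eIF4A (0.935, 0.913 and 0.898), and for stv Su(dx), tamo and Atg13 (0.998, 0.990 and 0.982). Likeness here is in how values vary across arrays and not in sign. The estimates of Su(dx), tamo and Atg13 were −0.45, −0.49 and −0.96 where that of stv was positive. The correlations used ratios without adjustment for dye or array spread, and the part of these in the likeness was not tested. These genes were the highest of 12656 probes, and a correlation over 7 arrays that was chosen as the highest is only a description.

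Measured genes beside the 9 on the chromosome did not pass the test, with 1 exception among the nearest on each side. Octbeta3R and CG5608, which flank the pair Hsp70Ba and Hsp70Bbb, lay at 0.37 ± 0.30 and −0.30 ± 0.19, and CG4461 and CG4080, which flank Hsp26 and Hsp27, at 0.04 ± 0.16 and −0.18 ± 0.21. The exception was CG6000 beside Hsp68, at 0.80 ± 0.15 (adjusted p = 0.0160 with limma), of the opposite sign to Hsp68. Abp1 beside stv lay at 0.66 ± 0.17 (adjusted p = 0.0556 with limma) and correlated with stv over the 7 arrays at 0.861. On the other side of stv, CG10089 lay at −0.10 ± 0.19 and correlated with it at −0.045. Tgi, the next measured gene past Abp1, lay at 0.57 ± 0.16 and correlated with stv at −0.077. These neighbours were read from gene order in the table and chosen after values were seen.

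The wider chaperone and stress network was read from 7 further lists with 84 measured genes, tested on gene means. Of these, 2 were positive and 5 negative past the test, 8.33% against 8.14% of all 11609 genes (4.32% positive and 3.82% negative), and their median was 0.03 against 0.02 over all genes. The network as a whole was thus called at the background rate, with single genes well away from 0. No list held more than 2 calls, so the share of a single list cannot be told from these rates.

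**Figure D4:**
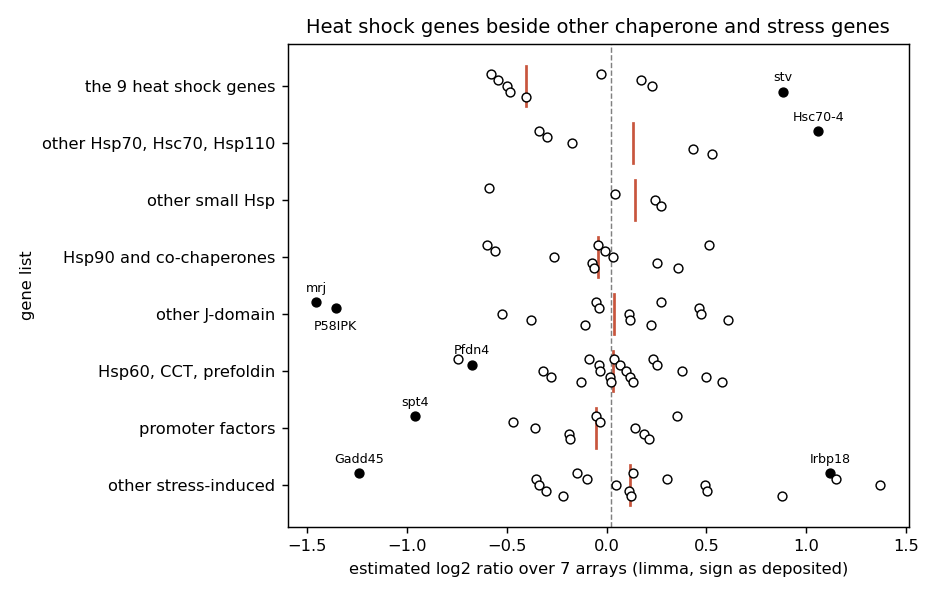
Estimated log2 ratio over 7 arrays (limma) for the 9 heat shock genes and 7 other lists, with 1 circle a gene. Filled and named circles passed an adjusted p under 0.05, red bars are list medians, and the dashed line is the median of all genes (0.02). Hsc70-4 stands at 1.06 while the 9 genes have a median of −0.40.

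Among the other Hsp70-type genes, 1 of 6 measured was positive past the test and 0 negative. It was Hsc70-4, the main constitutive cytosolic Hsp70, which is made without heat and also uncoats clathrin vesicles. Hsc70-4 read 1.27, 1.02 and 0.77 with genomic controls and 0.66, 1.21, 0.92 and 1.57 with transgenic controls. Its values were thus positive on 7 of 7 arrays and above those of all 3 inducible Hsp70 copies on each array. The estimate was 1.06 ± 0.16 (SE, n = 7, adjusted p = 0.00635 with limma), and the difference between control types was 0.06 (unadjusted p = 0.862, adjusted p = 1.0 with limma). The mitochondrial Hsc70-5 (0.53 ± 0.16, adjusted p = 0.0960 with limma) and the exchange factor gene Hsp110 (0.44 ± 0.19) did not pass, nor did Hsc70-3, the chaperone of the endoplasmic reticulum (−0.30 ± 0.23), Hsc70-1 (−0.17 ± 0.45) and Hsc70-2 (−0.34 ± 0.25).

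Of 10 other small heat shock genes listed, 4 were measured. Hsp22, Hsp23, Hsp67Ba, CG4456, Hsp67Bc and CG14207 had no probe that named them alone. Of the 4, 0 passed in limma on all 7 arrays, and 1 had an unadjusted p under 0.05. It was l(2)efl, an alpha-crystallin relative, at −0.59 ± 0.16 (adjusted p = 0.0629 with limma), negative on 7 of 7 arrays, from −1.17 to −0.20. It passed in 3 of 15 alternatives, with arrays centred and scaled (adjusted p = 0.0453), with quantile normalization (0.0371) and without the dye term (0.0477, limma). In the others it did not pass, with an adjusted p of up to 0.436, and of 0.0892 to 0.189 without any 1 array (limma). CG13133, CG7409 and CG4461 lay at 0.27 ± 0.35, 0.25 ± 0.20 and 0.04 ± 0.16.

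Other J-domain proteins, the class of DnaJ-1, held 2 negative genes past the test among 14, and 0 positive, against 3.82% and 4.32% of all genes. Their median was 0.04, with 7 of the 14 estimates below 0, and 2 calls cannot be told from this background. The cytosolic and nuclear mrj read −1.30, −1.02 and −2.24 with genomic controls and −1.38, −0.77, −1.07 and −2.07 with transgenic controls, so that all 7 were negative. Its estimate was −1.46 ± 0.18 (SE, n = 7, adjusted p = 0.00286 with limma), where that of DnaJ-1 was −0.48. P58IPK, a J-domain protein of the endoplasmic reticulum, read −0.16, −0.50 and −1.27, and −0.88, −1.37, −2.05 and −2.64, with an estimate of −1.36 ± 0.21 (adjusted p = 0.00803 with limma). The transgenic control arrays had lower values of P58IPK on average, with a difference of −0.90 that did not pass after adjustment (unadjusted p = 0.0235, adjusted p = 1.0 with limma). Both genes kept their call without any single array.

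Hsp83 of the Hsp90 list had no probe that named it alone, so it was not tested. The Hsp90 list, chaperones of kinases and receptors with their partners, had 0 of 11 measured genes past the test in limma. At an unadjusted p under 0.05 were 3 of them, as were 20.3% of all genes. These were CG1416 (−0.60 ± 0.19), HIP-R (−0.56 ± 0.17) and p23 (0.51 ± 0.19). Of 20 measured genes of the Hsp60 system, the CCT chaperonin and prefoldin, 1 was negative and 0 positive. It was the prefoldin subunit gene Pfdn4 at −0.67 ± 0.16 (adjusted p = 0.0445 with limma), negative on 7 of 7 arrays. The call of Pfdn4 was lost without any single array except 2.3 (adjusted p 0.0719 to 0.120 with limma), with a control-type term (0.0779) and with arrays centred and scaled (0.0553).

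Of 11 measured factors known to act at heat shock promoters, 1 was negative and 0 positive. It was spt4, a subunit of the elongation factor that holds and releases paused polymerase, at −0.96 ± 0.17 (adjusted p = 0.0138 with limma) and negative on 7 of 7 arrays, from −1.54 to −0.47. Its partner Spt5 lay at −0.47 ± 0.23 (adjusted p = 0.320), and Trl, the GAGA factor that opens Hsp70 promoters, at −0.05 ± 0.14 as the mean of 4 probes (adjusted p = 0.914 with limma). The call of spt4 was lost without array 1.2 (adjusted p = 0.0510 with limma) and with arrays centred and scaled (0.0843).

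Of 18 other stress-induced genes that were measured, 1 was positive and 1 negative. Irbp18, which encodes a partner of the stress transcription factor Crc, read 0.82, 0.76 and 0.96 with genomic controls and 0.93, 1.21, 2.01 and 0.97 with transgenic controls, at 1.12 ± 0.17 (adjusted p = 0.00720 with limma). Gadd45, a stress-response gene, was negative on 7 of 7 arrays, from −2.27 to −0.06, at −1.24 ± 0.26 (adjusted p = 0.0245 with limma). The call of Gadd45 was lost without array 1.1, 1.2, 2.3 or 2.4 (adjusted p 0.0629 to 0.0927 with limma).

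Measured markers of tissues that can come with dissected glands were read from the same fit. Of 5 fat body genes 1 was positive past the test, the lipid transfer protein gene Apoltp at 0.91 ± 0.19, and of 7 muscle genes 1 was negative, the troponin gene TpnC73F at −1.19 ± 0.21 (adjusted p = 0.0263 and 0.0138 with limma). These calls were lost with arrays centred and scaled (adjusted p = 0.0578 and 0.0689), for Apoltp also without array 1.1, 1.2, 1.3, 2.1 or 2.4 (0.0637 to 0.0830) and for TpnC73F without array 2.4 (0.0572, limma). The lists ran from −1.10 to 0.91 and from −1.19 to 0.26, with medians of −0.16 and −0.09. The lowest fat body gene was Fbp1 (−1.10 ± 0.32, adjusted p = 0.0847 with limma), of the opposite sign to Apoltp. Of the 5 fat body and 7 muscle estimates, 3 and 4 were below 0. Over all genes 8.14% were called, and with 1 call each the shares of these lists cannot be told from this background. By control type, the muscle gene up ran from 0.31 to 0.47 (genomic) and from −1.99 to −0.42 (transgenic). Tm2, also of the muscle list, ran from 0.38 to 1.41 and from −0.80 to 0.15. The differences, transgenic minus genomic, were −1.61, −1.15 and, for Fbp1, 1.31 (unadjusted p = 0.00363, 0.0216 and 0.0343 with limma). None passed after adjustment, and the other markers had an unadjusted p of 0.119 (Fbp2) or higher (limma). The part of these tissues in the ratios of the heat shock genes was not tested.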

How the data were processed

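The authors hybridized Cy3- and Cy5-labelled cDNA of 7 sample pairs to spotted INDAC FL003 arrays and deposited 1 log ratio per probe and array, read here as log2. Neither labels nor file headers name the log base, numerator, background correction, normalization or filters. If the base is another one, sizes change by 1 factor, while signs and tests do not. By the channel labels Cy5 marked the cleaved sample on 4 arrays and the intact one on 3, where the design text has these numbers the other way round. The ratios were taken as already turned to 1 direction, since 12 of 12 opposite-dye array pairs had a Pearson correlation above 0. Only 10 had a Spearman correlation above 0, and no label states the direction. A dye bias of single probes could also give such correlations in ratios that were not turned, so they cannot settle this.

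Probes were named through the platform annotation and the NCBI RefSeq gene table of Release 6, by Entrez number for 12011 probes. All 9 genes were matched. Of 14569 probes, 96 had several symbols and 1816 none.

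Each probe, and each gene mean for the wider lists, was fitted with limma 3.58.1 in R 4.3.3 (lmFit, eBayes) with a dye term. Among the alternatives, the fit on genomic control arrays alone held no dye term. Benjamini-Hochberg adjustment ran over all probes or all genes, with a threshold of 0.05. A fit with an effect for each control type gave the difference. The fits were run on simulated data with known changes. The simulated noise was the same on every array and held no dye effect, so this run does not cover unequal spread or dye. The design text describes the pairs as independent biological samples. Precision is limited by the number of arrays and by their unequal spread. Members and lists were chosen with earlier results of these data known. The text names all 9 genes, the genes of the other lists past the test, all measured genes of the small heat shock and Hsp70 lists, and 3 most alike genes for Hsp70Ab, Hsf and stv. Other genes that are named were chosen after their values were seen.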

Additional observations from a re-analysis of the deposited data

Results flagged for a closer look

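For each named gene the lowest and highest array was compared with its nearest neighbour, over all 7 arrays and over the 4 transgenic control arrays, which gave 54 groups for 27 genes. In 3 groups an array stood farther apart than Dixon's limit, where chance gives about 1 in 20, so the number of flags is near that of chance. The groups also overlap, since the 4 transgenic control arrays are among the 7. None of the flags concerned the 9 heat shock genes. Hsc70-1 read −3.42 on array 2.1, with the other arrays between −0.38 and 1.3. Without array 2.1 its estimate turned from −0.17 to 0.26. Irbp18 read 2.01 on array 2.3, with the others between 0.76 and 1.21. TpnC73F read −0.10 on array 2.1, where the other transgenic control arrays lay between −1.54 and −1.31.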

How the results depend on the processing

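Of 14569 probes 1158 changed, 13 and 39 did with the genomic or transgenic control arrays alone, 389 at an adjusted p under 0.01, and between 515 (without array 2.4) and 1157 (without array 2.3) without 1 array, with 724, 578 and 661 without arrays 1.1, 1.2 and 2.1. The 1 call among the 9 heat shock genes, by probe and by gene, became 0 with arrays centred and scaled, without the dye term, with a control-type term, with either control set alone and at an adjusted p under 0.01. It became 2 with array weights, whose iteration stopped short of its tolerance, and 0 without any 1 array except 2.1, where it remained 1 (limma; 5 of the 9 had an unadjusted p under 0.05 on all arrays). The count of differences between control types was 0 in each setting that could give one. The 7 calls of the wider lists became 11 with quantile normalization, 13 with array weights, 0 and 0 with either control set alone, 4 at an adjusted p under 0.01, and 4 to 9 without 1 array (lowest without 1.2, highest without 2.3). Signs that turned belonged to estimates that had not passed. With genomic control arrays alone they were Hsp26 (−0.20), Hsp27 (−0.29), CG4461 (−0.11), CG13133 (−0.14) and Hsc70-2 (0.027), with array weights Hsp26 (−0.068) and Hsf (0.070), and without the dye term CG4461 (−0.025). Without 1 array, estimates ran from −0.13 to 0.34 for Hsp26, −0.18 to 0.57 for Hsp27, −0.12 to 0.025 for Hsf, −0.028 to 0.13 for CG4461, −0.023 to 0.51 for CG13133 and −0.44 to 0.26 for Hsc70-1. Without array 1.3 that of Hsf was 0.014. The fits of 1 control set hold fewer arrays. That of the genomic control arrays also held no dye term, while that of the transgenic control arrays did. The part of each in these changes, and other causes, were not tested. Each of the 9 had 1 probe, so averaging probes gave no other value for the 9. Each ratio already pairs a cleaved with an intact sample, and no label says that arrays of the control sets share a batch, so no further block was fitted.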
